A study of Paralichthys olivaceus with 24 samples.

Results

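In the spleen of Japanese flounder (Paralichthys olivaceus), 51 of 14481 array probes gave a brighter signal in control fish kept at 25 °C than in control fish kept at 15 °C, at 3 h and again at 24 h, while their differences between poly(I:C) and water stayed within set limits at both temperatures. They are called warm-high probes below. Poly(I:C), a synthetic RNA of 2 paired strands given in place of a virus, was compared with DEPC-treated water as the control. The 24 single-colour Agilent arrays fall into 8 groups of 3, 1 for each combination of poly(I:C) or water, 15 °C or 25 °C, and 3 h or 24 h after treatment. The labels state no age, stock or number of fish per array, so p-values reflect only how far these samples differ, which may be technical.

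Flounder are ectotherms, so the temperature of the spleen follows that of the water. The spleen of teleost fish stores and clears red cells and is a main site where immune cells meet antigen. Double-stranded RNA is sensed there through pattern recognition receptors and induces interferons and the genes they control. The antiviral Mx genes are a textbook example of the latter. In bulk RNA, fewer cells of a type and less RNA per cell cannot be told apart.

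The 51 warm-high probes were chosen from the authors' deposited log2 values. Each carries a target name starting with JFC (14052 probes do) and had a group in which all 3 arrays were well above background. The mean of the 25 °C water arrays had to lie at least 1 log2 unit, a doubling, above that of the 15 °C water arrays at both times. The poly(I:C) minus water difference had to stay under 1 in size in 3 settings and under 0.58 at 25 °C and 24 h. Of the 598 JFC probes that met the temperature criterion, 547 failed a poly(I:C) limit. At 25 °C and 24 h, 461 of the 598 were past the limit in the lower direction and 3 in the higher, and 123 failed this limit alone. At 25 °C and 3 h, 360 were past the limit in the lower direction and 11 in the higher. At 15 °C the failures ran mainly the other way, with 66 probes higher and 16 lower at 24 h, and 34 higher and 6 lower at 3 h. The water means that chose the 598 are also subtracted in these differences, so these directions were favoured in advance. Of all 13379 probes with such a group, 1628 lay at or below -1 and 1121 at or above 1 at 25 °C and 3 h. At 15 °C and 24 h these were 1096 and 1248, and at 3 h 141 and 360. The share past 0.58 was not taken. The mirror rule, for probes brighter at 15 °C, left 39 of 82.

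The probes carry no gene names here. The 14478 distinct target names matched 0 of the 30478 genes in the reference gene table, so members are given by probe and target name, with no role, and neither the spleen nor its cell types could be checked against markers. Probe sequences were not used here. No 2 warm-high probes shared a contig code (0 pairs), and 0 other probes of the array lay on their contigs, so each stands for its own target as far as names tell.

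Slide and temperature are entangled in these arrays, and this bears on every value below. Per the file headers the 24 arrays sat on 3 slides of 8. Slide 1 held cool arrays only, 6 of poly(I:C) and 2 of water at 3 h. Slide 3 held warm arrays only, which were all 6 of water at 25 °C and 2 of the 24 h poly(I:C) group at 25 °C. Slide 2 held 4 arrays of each temperature. The cool ones were the 3 water arrays at 24 h and 1 water array at 3 h. The warm ones were the 3 poly(I:C) arrays at 3 h and 1 poly(I:C) array at 24 h. No slide held both warm and cool water arrays, so slide and temperature in water cannot be told apart directly. Across the arrays the 75th percentile of the processed signal ran from 362.7 to 900.9 units, 78.4% to 95.0% of probes were well above background, and 0 spots were saturated.

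Signals below are log2 values relative to the 75th percentile of each array. Differences are given with the standard error of the fit over all 24 arrays. A probe is called where its adjusted p (limma, Benjamini-Hochberg over all 13379 probes tested) is under 0.05, and its arrays are separate where every array of one group lies above every array of the other. Differences in water and poly(I:C) differences chose the members. The temperature difference in poly(I:C) is their sum, so the rule itself held it above -1 at 3 h and above -0.58 at 24 h. All of these are therefore descriptions, with no test.

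The 51 probes were low on cool arrays and high on warm ones, as the rule required of the water arrays. Each probe was centred on its own mean over the 24 arrays, and the median of the 51 was taken on each array. It lay between -0.81 and -0.33 on the 12 cool arrays. It lay between 0.66 and 0.90 on the 6 warm water arrays, between 0.21 and 0.35 on the 3 poly(I:C) arrays at 25 °C and 3 h, and at -0.08, 0.65 and 0.50 on those at 25 °C and 24 h. All warm arrays lay above all cool arrays. The same median over all tested probes stayed between -0.10 and 0.13.

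By group, the mean of these array medians was -0.57 ± 0.15 (SD, n = 3) in water at 15 °C and 3 h and -0.60 ± 0.17 (SD, n = 3) at 24 h. In water at 25 °C it was 0.74 ± 0.13 (SD, n = 3) at 3 h and 0.74 ± 0.05 (SD, n = 3) at 24 h. With poly(I:C) at 15 °C it was -0.64 ± 0.17 (SD, n = 3) at 3 h and -0.42 ± 0.09 (SD, n = 3) at 24 h. With poly(I:C) at 25 °C it was 0.28 ± 0.07 (SD, n = 3) at 3 h and 0.36 ± 0.38 (SD, n = 3) at 24 h. The last group has the widest spread of the 8, and it is the only warm group that spans 2 slides.

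In water, where the rule fixed the direction, the median difference between 25 °C and 15 °C over the 51 probes was 1.27 at 3 h (quartiles 1.15 and 1.503, range 1.01 to 3.61) and 1.29 at 24 h (quartiles 1.14 and 1.49, range 1.03 to 2.71). Over all tested probes the medians were -0.00 and 0.09. At 3 h 45 members were called higher, against 14% of all tested probes, and 43 had separate arrays, against 17.2%. At 24 h 43 were called, against 17.8%, and 48 were separate, against 28.5%. Nothing is read from these counts, since the rule used both contrasts.

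The members near the threshold were ordinary neighbours of those that missed it. In the deposited values, CUST_6902_PI426483990 (JFC01505_1_code) was inside with a difference of 1.01 at 3 h and 1.10 at 24 h, but only 1 of its 6 cool water arrays was well above background. CUST_9210_PI426483990 (JFC19583_1_code) was inside with 1.35 at 3 h and 1.02 at 24 h, and again only 1 of its 6 cool water arrays was well above background. CUST_8999_PI426483990 (JFC03725_1_code) missed at 3 h with 0.995 and had 1.13 at 24 h. CUST_12168_PI426483990 (JFC05348_1_code) missed at 3 h with 0.985 and had 1.71 at 24 h. Of the 7599 probes that met every criterion but temperature, 359 had a smaller difference of 0.5 to 1.

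The largest difference in water belonged to CUST_11073_PI426483990 (JFC19187_1_code). Its log2 signal in water at 15 °C was -1.91, -3.00 and -2.99 at 3 h and -1.07, -2.79 and -1.50 at 24 h. In water at 25 °C it was 2.64, 0.57 and -0.26 at 3 h and 1.25, -0.09 and 1.61 at 24 h. The cool poly(I:C) arrays gave -1.57, -1.54 and -1.99 at 3 h and -1.10, -0.34 and -1.49 at 24 h. The warm poly(I:C) arrays gave 1.43, 2.51 and 1.32 at 3 h and 0.51, 0.07 and 1.05 at 24 h. Every warm array lay above every cool one, although the lowest warm array and the highest cool array were only 0.08 apart. The difference between temperatures was 3.61 ± 0.62 (SE, n = 3 per group) in water at 3 h and 2.71 ± 0.62 at 24 h. After poly(I:C) it was 3.45 ± 0.62 at 3 h and 1.52 ± 0.62 at 24 h.

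The second, CUST_12169_PI426483990 (JFC05679_1_code), had much tighter replicates. In water at 15 °C it measured 0.41, 0.12 and 0.09 at 3 h and -0.00, -0.75 and 0.17 at 24 h. In water at 25 °C it measured 2.04, 1.77 and 1.74 at 3 h and 1.9995, 2.24 and 2.05 at 24 h. The poly(I:C) arrays at 15 °C gave 0.28, 0.12 and 0.23 at 3 h and -0.00, 0.15 and 0.23 at 24 h, close to the cool water arrays. The poly(I:C) arrays at 25 °C gave 1.57, 1.49 and 1.48 at 3 h and 1.56, 1.71 and 1.76 at 24 h. They lay above all cool arrays and below all warm water arrays of the same time. Its lowest warm array exceeded its highest cool array by 1.07, the widest such gap among the 51 probes. The difference between temperatures in water was 1.64 ± 0.17 (SE, n = 3 per group) at 3 h and 2.29 ± 0.17 at 24 h.

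All 12 warm arrays lay above all 12 cool arrays for 12 of the 51 probes, or 23.5%, against 0.59% of all tested probes. Under the rule no member could be separate in the opposite direction (0 of 51, against 1.23% of all tested probes). All 24 arrays entered the rule, so these counts are a description and no test. Besides the pair above, the 12 include the brightest member, CUST_6179_PI426483990 (JFC26015_1_code), and the 2 members least moved by poly(I:C), CUST_3179_PI426483990 (JFC04008_1_code) and CUST_11096_PI426483990 (JFC00179_1_code).

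In poly(I:C)-treated fish most of the 51 probes were also brighter at 25 °C. The difference was smaller than in water, where a difference of at least 1 had been required. With slide in the fit that order turned at 3 h, to 1.08 with poly(I:C) and 0.86 in water. Both of these adjusted values lean on the single cool 3 h water array of slide 2. Without slide in the fit, the median difference with poly(I:C) was 0.83 at 3 h (quartiles 0.48 and 1.25, range -0.31 to 3.45). At 24 h it was 0.82 (quartiles 0.34 and 1.21, range -0.30 to 1.74), against -0.05 over all tested probes at either time. It was above 0 for 50 of 51 probes at 3 h and for 47 at 24 h. At both times 46 were above 0, 5 were above 0 at only 1 time, and 0 were below 0 at both. It reached 1 at both times for 11 probes, at 3 h only for 12, at 24 h only for 7 and at neither time for 21.

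At 3 h 25 of the 51 were called higher in the warm poly(I:C) arrays, against 20.5% of all tested probes, and 35 had separate arrays, against 27.2%. At 24 h 25 were called, against 18.9%, and 24 were separate and higher, against 24.2%. One probe (1 of 51) was separate and lower at 24 h, against 31.5% of all tested probes. At both times 14 were called, against 2.38% of all tested probes, and 18 were separate and higher, against 4.28%. A probe of difference 1 in water, held by the rule within the poly(I:C) limits, starts nearer to such a difference than other probes do, so the shares are no test.

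CUST_3179 had the largest difference between temperatures with poly(I:C) at 24 h, 1.74 ± 0.23 (SE, n = 3 per group), and its 4 poly(I:C) differences were within 0.20 of 0. It measured -2.34, -2.46 and -2.68 in water at 15 °C and 3 h, and -2.07, -2.69 and -2.36 at 24 h. In water at 25 °C it measured -0.98, -1.23 and -0.84 at 3 h and -0.86, -0.69 and -0.91 at 24 h. The cool poly(I:C) arrays stood at -2.36, -2.88 and -2.20 at 3 h and at -2.54, -2.64 and -2.31 at 24 h. The warm poly(I:C) arrays stood at -1.63, -0.90 and -1.11 at 3 h and at -0.27, -0.84 and -1.17 at 24 h. Warm and cool arrays did not overlap, with a gap of 0.45. CUST_3713_PI426483990 (JFC21574_1_code) came next at 24 h with 1.69 ± 0.25, but its difference with poly(I:C) at 3 h was 0.41 ± 0.25.

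CUST_11096 had all 4 poly(I:C) differences within 0.22 of 0. In water at 15 °C it measured 0.18, -0.29 and -0.14 at 3 h and 0.43, -0.08 and 0.17 at 24 h, and in water at 25 °C 1.63, 0.91 and 1.01 at 3 h and 1.04, 1.82 and 1.73 at 24 h. The poly(I:C) arrays gave 0.56, -0.30 and 0.14 at 3 h and 0.09, -0.13 and -0.09 at 24 h when cool, and 1.40, 1.18 and 1.002 at 3 h and 1.84, 1.45 and 1.65 at 24 h when warm. All warm arrays lay above all cool ones, by at least 0.35. Its difference between temperatures was 1.27 ± 0.24 (SE, n = 3 per group) in water and 1.06 ± 0.24 with poly(I:C) at 3 h, and 1.36 ± 0.24 and 1.69 ± 0.24 at 24 h.

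The 2 brightest members kept the pattern in most settings. CUST_6179 averaged 0.85 ± 0.28 (SD, n = 3) and 1.25 ± 0.13 in water at 15 °C at 3 h and 24 h, and 2.61 ± 0.15 and 2.67 ± 0.25 at 25 °C. After poly(I:C) it averaged 0.57 ± 0.19 and 0.49 ± 0.18 at 15 °C, and 1.91 ± 0.16 and 2.18 ± 0.23 at 25 °C. Its warm and cool arrays did not overlap. CUST_9119_PI426483990 (JFC27343_1_code) averaged 0.43 ± 0.21 and 0.67 ± 0.17 in water at 15 °C at 3 h and 24 h, and 2.37 ± 0.09 and 1.78 ± 0.30 at 25 °C. After poly(I:C) it averaged 0.25 ± 0.09 at 15 °C and 3 h but 1.32 ± 0.27 at 15 °C and 24 h, where 1 cool array, at 1.62, overlapped the warm water arrays. At 25 °C with poly(I:C) it averaged 1.94 ± 0.21 and 2.08 ± 0.17.

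Other members kept the difference at 1 time only. CUST_2654_PI426483990 (JFC21175_1_code) had a difference with poly(I:C) of 2.72 ± 0.23 (SE, n = 3 per group) at 3 h and of 0.27 ± 0.23 at 24 h. In cool fish given poly(I:C) it measured -3.48, -3.01 and -3.01 at 3 h and -2.13, -1.50 and -1.79 at 24 h. In warm fish given poly(I:C) it measured -0.41, -0.27 and -0.67 at 3 h and -1.59, -1.53 and -1.48 at 24 h. The temperatures thus lay far apart at 3 h and overlapped at 24 h. In water its difference was 1.70 ± 0.23 at 3 h and 1.31 ± 0.23 at 24 h.

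At the low end at 3 h, CUST_5989_PI426483990 (JFC22646_1_code) had a difference with poly(I:C) of -0.31 ± 0.58 (SE, n = 3 per group), with 1 of 3 cool and 2 of 3 warm arrays well above background. CUST_9299_PI426483990 (JFC06644_1_code) had 0.08 ± 0.47, and its water arrays at 15 °C and 3 h alone ran from -3.32 to -1.65. At the low end at 24 h, CUST_13609_PI426483990 (JFC09467_1_code) had -0.30 ± 0.25 and was the 1 member separate in the lower direction. Its poly(I:C) arrays at 24 h measured -4.11, -4.07 and -4.30 at 15 °C and -4.31, -4.50 and -4.59 at 25 °C. CUST_4060_PI426483990 (JFC19600_1_code) had -0.06 ± 0.38 at 24 h.

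The rule capped the poly(I:C) differences, and within those caps they were not centred on 0 at 25 °C. The water means subtracted in them also chose the members, as high at 25 °C and low at 15 °C. That choice favours lower differences at 25 °C and higher ones at 15 °C, so no response is read from their direction. At 25 °C the median over the 51 probes was -0.58 at 3 h and -0.43 at 24 h, against -0.15 and -0.17 over all tested probes. At 15 °C it was -0.03 at 3 h and 0.30 at 24 h. At 25 °C and 3 h 14 members were called lower, against 29% of all tested probes, and 3 higher, against 17.9%. At 25 °C and 24 h 2 were called lower, against 11%. At 15 °C and 24 h 9 were called higher, against 19.3%, and 1 lower, against 18.4%. At 15 °C and 3 h 0 were called by limma, against 2.23% either way, and 4 had an unadjusted p under 0.05, against 14.1%. A limit on the size of a difference thus did not leave only probes without a call. At 25 °C and 3 h all poly(I:C) arrays were on slide 2 and all water arrays on slide 3, so slide and treatment cannot be told apart there. The same holds at 15 °C and 24 h, with all poly(I:C) arrays on slide 1 and all water arrays on slide 2. With slide in the fit the median at 25 °C and 3 h turned to 0.23, with 32 of 51 above 0, and that at 25 °C and 24 h was -0.15. At 15 °C and 24 h it fell to 0.09, with 27 of 51 above 0.

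The signal of these probes was dim, which limits its precision. Brightness on an array depends on the probe as well as on the RNA, so it is given only as a measure of signal over background. The mean log2 signal of the 51 had a median of -3.12 (quartiles -4.48 and -1.87, range -5.58 to 1.57), against -1.70 over all tested probes, and 41 of 51 lay below that. The median SD within groups was 0.28, against 0.19. Well above background on all 24 arrays were 25 of 51, or 49.0%, against 78.1% of all tested probes. The 39 cool-high probes of the mirror rule had a median of -1.36 and an SD of 0.20. The 547 probes that failed a poly(I:C) limit were dimmer still, with a median of -3.51 and an SD of 0.39. Of these, 39.9% were well above background on all 24 arrays.

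More members were detected on warm than on cool arrays, as their choice for a higher warm signal made likely. On all 3 arrays of the group, 42 members were well above background in water at 25 °C and 3 h and 49 at 24 h, against 34 in water at 15 °C and 3 h and 25 at 24 h. In the poly(I:C) groups the numbers were 32 and 36 at 15 °C, and 45 and 44 at 25 °C. As shares, the members ran from 49% in water at 15 °C and 24 h to 96.1% in water at 25 °C and 24 h, where all tested probes stood at 82.9% and 96.1%. In water at 15 °C and 24 h 16 members were above background on none of the 3 arrays. In this group 78.4% to 83.9% of all probes were well above background, the lowest of the water groups.

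For 4 members none of the 6 cool water arrays was well above background, so their differences are bounds, set against the lowest signal of a probe well above background on each array or the probe's own, whichever was higher. The warm side was the mean of all 3 arrays. Where a warm array was not well above background, the value is no strict bound. For CUST_12897_PI426483990 (JFC16037_1_code) the bound at 25 °C over 15 °C in water was 2.001-fold at 3 h, where 2 of 3 warm arrays measured it. At 24 h it was 1.46-fold. CUST_1933_PI426483990 (JFC26281_1_code) was at least 1.05-fold higher at 24 h, and at 3 h none of its 3 warm water arrays was well above background either. For the other two the bound was 1.37-fold and 1.35-fold at 3 h, with 1 of 3 warm arrays well above background, and under 1 at 24 h, so no fold is given there. At 24 h alone, 16 members had none of the 3 cool water arrays well above background. For 12 of these the bound ran from 1.05-fold to 3.15-fold, and for 4, CUST_6902 among them, it was under 1. For CUST_9210, CUST_5989, CUST_13609, CUST_7656, CUST_5641 and CUST_1075 the 24 h differences are also against such arrays. With these members at their bound the median difference in water was 1.25 at 3 h and 1.16 at 24 h.

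Slide 2 alone held both temperatures, as 4 warm poly(I:C) arrays and 4 cool water arrays. Treatment and temperature differ together in this comparison, and its arrays also entered the rule, so it is a description. At both times the rule held the group mean of warm poly(I:C) arrays above that of cool water arrays. A higher warm signal on slide 2 was thus largely fixed in advance, and the shares below are no test. The 51 probes were higher on the warm arrays without exception (51 of 51), with a median of 0.85 (range 0.13 to 3.53), against -0.03 over all tested probes. The difference reached 1 for 20 members, against 1081 of the 13379 tested probes. The warm arrays were separate and higher for 24 of 51, against 11.2% of all tested probes. For CUST_11073 the difference within the slide was 3.53, for CUST_12169 1.65 and for CUST_3179 1.47, all with separate arrays. For 17 members the arrays were separate on slide 2 and also in poly(I:C) at both times, against 2.19% of all tested probes. The 547 probes that failed a poly(I:C) limit had a median of 0.44 on slide 2. The 39 cool-high probes had one of -1.24, with 36 separate and lower, against 1930 of the 13379 tested probes. The mirror rule largely fixed that direction in advance as well.

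With slide as a term in the fit the differences in water shrank. The median over the 51 probes fell from 1.27 to 0.86 at 3 h, with 3 called, against 0.314% of all tested probes. At 24 h it fell from 1.29 to 0.62, with 5 called, against 1.02%. In poly(I:C) it was 1.08 at 3 h, with 17 called, against 10.7%, and 0.57 at 24 h, with 5 called, against 5.3%. The step between slides 1 and 2 in this fit rests on 1 array against 2 of the cool 3 h water group. Except in water at 24 h, the adjusted temperature differences and their calls lean on that array. The adjusted poly(I:C) minus water difference at 15 °C and 24 h does so too. The step from slide 2 to slide 3 rests on 1 array against 2 of a single group, the warm 24 h poly(I:C) arrays.

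The mean of the warm 24 h poly(I:C) group entered the rule, but the difference between its arrays on the 2 slides did not. The step from slide 2 to slide 3 was therefore tested, with the single slide 2 array assumed to vary like the other arrays. The array medians of the members had an SD of 0.38 in this group, the widest of the 8. Without the slide 2 array the rule gave 115 members, and without 1 of the slide 3 arrays 35 or 30. The choice of members thus leaned on that array, so the counts and p-values of the step are no independent test. A call here cannot tell a slide from a single deviating array. The 51 probes tended to be brighter on slide 3, with a median step of 0.63 (quartiles 0.14 and 1.04, range -0.74 to 2.28). The median was -0.03 over all tested probes and -0.07 over the 39 cool-high probes. Over the warm-high probes that failed a poly(I:C) limit it was larger, at 1.07, with 509 of 546 positive. A low slide 2 array lowers the mean that was held to the limit at 25 °C and 24 h. A positive step was thus favoured in advance among the failing probes. It was seen outside the members, but whether its size is particular to them was not tested. The step was positive for 42 of 51 members, against 45.4% of all tested probes. Only CUST_12562_PI426483990 (JFC13373_1_code) was called, against 0.336% of all tested probes called higher. At an unadjusted p under 0.05 there were 21 members, or 41.2%, against 8.01% of all tested probes. The CUST_12562 arrays for poly(I:C) at 25 °C and 24 h measured -3.73 on slide 2 and -1.44 and -1.46 on slide 3, a step of 2.28 ± 0.44 (SE; limma adjusted p = 0.032). Its warm water arrays, all on slide 3, ran from -2.76 to -1.45 and its cool water arrays from -4.39 to -3.46. Its poly(I:C) arrays at 25 °C and 3 h, on slide 2, measured -3.53, -2.83 and -3.13, overlapping the cool arrays. No step was called when the normexp background or the replicate block was used, or without replicate 2 or 3 of the warm 24 h poly(I:C) group (0 members each), whereas leaving out replicate 1 of water at 25 °C and 3 h gave 5. Shares of all tested probes were not taken for these fits, so the counts describe the members only.

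CUST_1933 had the next largest step, 2.11 ± 0.64 (SE; limma adjusted p = 0.20). It measured -5.38 on the slide 2 array, which was not well above background, and -3.21 and -3.33 on the slide 3 arrays. At the other end, CUST_3135_PI426483990 (JFC04643_1_code) and CUST_3179 each had a step of -0.74 (limma adjusted p = 0.65 and 0.52), so they were dimmer on slide 3. CUST_3135 measured 0.27 on slide 2 and -0.25 and -0.70 on slide 3.

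For 39 of the 51 probes, or 76.5%, both slide 3 arrays of that group were above the slide 2 array, against 34.2% of all tested probes. For 7 both were below it, and 5 were mixed. Among the 547 probes that failed a poly(I:C) limit the share with both above was 90.3%, and among the 39 cool-high probes 10.3%. The mean of this group, slide 2 array included, was held to the warm 24 h limit. Of the 598 probes that met the temperature criterion, 461 were past that limit in the lower direction. A low slide 2 array lowers that mean, so the 90.3% was favoured in advance and is no measure for the members. For 8 members the step was at least as large as the temperature difference in water at 24 h. Array and slide cannot be told apart in this group, since slide 2 holds only replicate 1 of it. Whether slide or array accounts for the step was not tested.

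The step was larger among dim than among bright members, and no such trend was seen over all probes. When all tested probes were put into 5 classes by mean signal, 19, 13, 11, 4 and 4 members fell into the classes from dim to bright. Their median steps were 0.80, 0.90, 0.82, 0.08 and -0.03, each over fewer than 20 probes. Over all probes of the classes the medians were -0.03, -0.02, -0.04, -0.04 and -0.02. The difference in water at 24 h over all probes was 0.44 in the dimmest class and between -0.02 and 0.08 in the others. At 3 h it was 0.11 in the dimmest class.

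The step was also set beside arrays outside the warm 24 h poly(I:C) group. Between the poly(I:C) arrays at 25 °C and 3 h and the cool water arrays, all on slide 2, the median difference was 1.10 for the 7 members with both slide 3 arrays below the slide 2 array, 0.76 for the 39 with both above and 1.38 for the 5 mixed ones. These classes were set by 3 arrays and are given as a description.

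Time after treatment, taken over all settings as the mean of the 4 groups at 24 h minus that of the 4 groups at 3 h, does not enter the rule. It averages settings in which a probe can move opposite ways. The median was 0.12, against 0.03 over all tested probes. No member (0) was called higher by limma, against 10.7% of all tested probes, and 3 were called lower, against 8.23%. Regardless of direction 11, or 21.6%, had an unadjusted p under 0.05, against 30.9% of all tested probes. On data of this design simulated for 13331 probes, without slide differences, the test recovered 99% of 100 changes of 1 log2 unit. The changed probes were drawn from all tested probes, whose median SD within groups was 0.19, against 0.28 for the members. Smaller changes were not simulated.

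The largest fall belonged to CUST_7656_PI426483990 (JFC12774_1_code), at -0.80 ± 0.21 (SE; limma adjusted p = 0.013). It measured -3.45, -3.74 and -3.15 in water at 25 °C and 3 h and -4.52, -5.10 and -3.69 at 24 h. In warm fish given poly(I:C) it measured -3.60, -3.60 and -3.20 at 3 h and -4.96, -5.23 and -4.56 at 24 h. The 3 h arrays were all above the 24 h arrays with poly(I:C), while in warm water 1 array at 24 h overlapped them. At 15 °C its groups averaged -4.89 ± 0.74 (SD, n = 3) and -5.66 ± 0.50 in water, and -5.19 ± 0.96 and -5.17 ± 0.17 with poly(I:C), with at most 1 of 3 arrays well above background. CUST_5641_PI426483990 (JFC09678_1_code) fell by 0.40 ± 0.13 (SE; limma adjusted p = 0.038). It was -3.28, -3.77 and -3.52 in water at 25 °C and 3 h and -4.11, -4.36 and -4.11 at 24 h. The third, CUST_8640_PI426483990 (JFC06769_1_code), which lies outside the naming rule and was chosen after its values were seen, fell by 0.22 ± 0.07 (SE; limma adjusted p = 0.040). With slide in the fit 1 of the 3 stayed called, against 5.58% of all tested probes called lower. Without replicate 1 of the warm 24 h poly(I:C) group 7 members were called higher and 3 lower. The share of all tested probes was not taken for that fit.

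Within single settings the time differences share group means with the rule and are descriptions. In water at 15 °C the median was 0.03 with 0 called by limma, against 0.949% of all tested probes either way, and 3 had an unadjusted p under 0.05, against 13.2%. In water at 25 °C it was 0.00 with 1 called lower, against 3.14%. With poly(I:C) at 15 °C it was 0.23 with 8 called higher, against 19.3%. With poly(I:C) at 25 °C it was 0.16 with 2 called higher, against 23.5%, and 4 lower, against 21%. Its 3 h arrays were on slide 2 and 2 of its 3 arrays at 24 h on slide 3, and with slide in the fit the median turned to -0.34, with 37 of 51 below 0.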

How the data were processed

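The deposited scanner files hold, per the file headers, the intensity of each spot, with background already subtracted in Agilent Feature Extraction and no scaling between arrays. The headers give version 10.7.3.1 and the submitters' processing notes 9.5.3.1. The deposited value table holds the authors' log2 values, made by steps not given in the sources used here. Set against the scanner values, 99.98% of them lay within 0.02 log2 after 1 constant per probe was removed, so scale and direction are those of 75th percentile scaling and the centring stays unknown. Column medians ran from -0.16 to 0.11. Members were found in the value table, and all other values come from the scanner files.

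Control spots and outlier spots (2 to 22 per array) were left out, and log2 of the processed signal minus the 75th percentile of the array was taken. A probe needed a group with all 3 arrays well above background, so 13379 probes were tested and 1102 left out. Group means over 24 arrays were fitted with limma 3.58.1 (lmFit, eBayes) in R 4.3.3, with 16 residual and 2.64 prior degrees of freedom. Adjusted p-values are Benjamini-Hochberg over all tested probes. The fits were tested on simulated data. The number of arrays, the signal over background and the slide layout limit the precision: the median SE of a member's difference in water was 0.27, and 0.52 at 3 h and 0.45 at 24 h with slide in the fit.

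The members and lists were chosen with earlier results of these data known. At most 2 probes at each end of a comparison are named: those with the largest or smallest temperature, time or slide differences, the brightest, those least moved by poly(I:C), those at the threshold and those bounded by background. Marker lists for chaperones, the cell cycle and spleen cell types were prepared but could not be applied, since 0 target names matched a gene. Alternatives were other scalings, normexp background, filters, slide and replicate blocks, other thresholds and leaving out each array. The normexp setting used median spot signals in place of the planned mean signals.

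Taken over all groups, no pairing of the samples by the shared replicate numbers was seen. Deviations from the group means of arrays with the same number had a median correlation of -0.01 (range -0.39 to 0.31), as did those of other numbers, at -0.01.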

Additional observations from a re-analysis of the deposited data

Results flagged for a closer look

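For 1 member the temperature difference went opposite ways with and without poly(I:C). CUST_13609 at 24 h was 1.10 higher at 25 °C in water and had a difference of -0.30 with poly(I:C), and the arrays did not overlap in either case. The difference between these values was not tested. Of all tested probes, 28.5% were separate and higher in water at 24 h and 31.5% separate and lower with poly(I:C). The share with both was not taken.

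For 4 members the 24 h minus 3 h difference with poly(I:C) went opposite ways at 15 °C and 25 °C, with arrays that did not overlap. It was 0.72 and -1.21 for CUST_11073, and 1.36 and -1.08 for CUST_2654. It was 1.08 and -0.98 for CUST_2836_PI426483990 (JFC00445_1_code), and 0.40 and -0.69 for CUST_8640. Of all tested probes, 28.1% were separate and higher at 24 h with poly(I:C) at 15 °C, and 27% separate and lower at 25 °C. The share with both was not taken, so nothing is read from the count. At 15 °C the 24 h minus 3 h difference went opposite ways in water and with poly(I:C) for 2 members. It was -0.76 and 0.75 for CUST_1075_PI426483990 (JFC19741_1_code), and -0.25 and 0.40 for CUST_8640. In water at 15 °C 13.5% of all tested probes were separate and lower at 24 h, and the share with both was not taken here either. CUST_1075 was well above background on 1 of 3 cool water arrays at 3 h, 0 of 3 at 24 h and 0 of 3 cool poly(I:C) arrays at 3 h. CUST_2836, CUST_8640 and CUST_1075 were chosen after their values were seen, and none of these differences between settings was tested. Slide and time are partly entangled in them. With poly(I:C) at 25 °C the 3 h arrays were on slide 2, and 2 of the 3 at 24 h on slide 3. In water at 15 °C 2 of the 3 arrays at 3 h were on slide 1, and all at 24 h on slide 2. With poly(I:C) at 15 °C all arrays were on slide 1.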

How the results depend on the processing

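Which probes count as warm-high did not depend on whether deposited or scanner values were used. It changed with the background correction, the slide term, the scaling, the thresholds and single arrays. The rule found 51 members, and the same 51 from the scanner values. It found 88 with median scaling (43 shared), 73 with quantile scaling (35 shared) and 76 with the normexp background (8 shared). With slide as a block in the temperature differences only, it found 74 (16 shared). The poly(I:C) differences were left without slide in that setting. Detection on all 24 arrays left 25, a poly(I:C) limit of 1 in all settings 143, a limit of 0.58 in all settings 12, a temperature threshold of 0.58 292 and one of 1.5 4. Leaving out 1 array gave 30 to 115 members, with 28 to 51 of them shared. The highest count was without replicate 1 and the lowest without replicate 3 of the warm 24 h poly(I:C) group.

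The median temperature difference in water at 3 h was 1.27, and 0.84 with normexp, 0.86 with slide as a block and 0.85 on slide 2 alone, with 1.25 to 1.38 when 1 array was left out. At 24 h it was 1.29, and 0.96, 0.62 and 0.85 under the same settings, with 1.21 to 1.41. With poly(I:C) at 3 h it was 0.83, and 0.30 with normexp, with 0.71 to 0.96. At 24 h it was 0.82 and moved by less than the spread between replicates under all 6 settings, with 0.70 to 0.97. Normexp moved the median of all probes by 0.14 and 0.21 in water at 3 h and 24 h and by 0.37 with poly(I:C) at 24 h, and median scaling moved it by 0.20 with poly(I:C) at 3 h. None of these 4 temperature medians changed sign under these settings. With slide as a block the poly(I:C) difference at 25 °C and 3 h turned from -0.58 to 0.23, the time difference within poly(I:C) at 25 °C from 0.16 to -0.34 and the time effect over all settings from 0.12 to -0.00.

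The time effect called 3 members, and 0 with normexp, 1 on probes well above background on all 24 arrays and 1 with slide as a block, with 1 to 10 when 1 array was left out. It called 1 without replicate 2 or 3 of the cool 24 h water group, replicate 2 of the cool and replicate 3 of the warm 3 h water group, replicate 2 of the 24 h and replicate 3 of the 3 h cool poly(I:C) group, or replicate 1 or 2 of the warm 3 h poly(I:C) group. It called 5 without replicate 1 of either 3 h water group and 10 without replicate 1 of the warm 24 h poly(I:C) group. The slide step called 1 member, and 0 with normexp and 0 on probes well above background on all 24 arrays, with 0 to 5 when 1 array was left out. It called 2 or 3 without replicate 1 of the cool 24 h water group, replicate 1 or 2 of the cool and replicate 3 of the warm 3 h water group, or replicate 3 of the cool 3 h poly(I:C) group, 5 without replicate 1 of the warm 3 h water group, and 0 without replicate 2 or 3 of the warm 24 h poly(I:C) group. It cannot be computed without replicate 1 of that last group. With the replicate block the time effect called 2 members and the slide step 0, and the median differences were unchanged by construction. The cause of these shifts was not tested. Shares of all tested probes were not taken for fits with other scaling, background, filter or replicate block, or with an array left out. Those counts describe the members only. On simulated data the slide step recovered 40% of changes of 1 log2 unit and 84% of changes of 2, and smaller steps were not simulated. The changed probes were drawn from all tested probes, whose median SD within groups was 0.19, against 0.28 for the members. Recovery among members was not simulated.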
